A study of Mus musculus with 10 samples.

Results

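This account covers 8 surface molecules through which a macrophage signals to T cells or is itself restrained: Cd80, Cd86, Cd83, Cd274, Pdcd1lg2, Icosl, Havcr2 and Cd69. They were taken by symbol from the deposited tables, which hold 45318 genes, and all 8 were found and were among the 13171 genes that passed the filter on low values. The cells were bone marrow derived macrophages, primary mouse macrophages grown from marrow, of strain C57BL/6. The series asks how loss of TLR4, the receptor for bacterial lipopolysaccharide, bears on inflammatory signalling. There were 5 groups of 2 libraries: untreated cells labelled wild type (WT untreated), untreated cells labelled Tlr4 -/- (KO untreated), cells of each label collected after 6 h in medium with 5% FBS and 2% BSA (WT control and KO control), and Tlr4 -/- cells pre-treated with the synthetic RNA duplex Poly(I:C), a mimic of viral RNA (KO Poly(I:C)). The duration and medium of the Poly(I:C) treatment, the medium of untreated cells, the allele behind the knockout label and the age of the mice were not given in the sources used here, and wild-type cells with Poly(I:C) were not analysed here.

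T cells need a second signal beside antigen. CD80 and CD86 on the presenting cell bind CD28, which gives that signal, and CTLA-4, which opposes it. CD83 is a marker of matured dendritic cells that stabilises CD86 and MHC class II at the surface, and ICOSL engages ICOS on activated T cells. PD-L1 (Cd274) and PD-L2 (Pdcd1lg2) bind PD-1 and restrain the T cell. Although grouped with ligands here, Havcr2 encodes the receptor TIM-3 and Cd69 encodes a lectin-type membrane protein of recently activated leukocytes that holds S1PR1 inside the cell. In macrophages several of these genes are known to be induced by Toll-like receptor ligands and by interferons.

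Levels below are CPM, each deposited value as a share of its library's normalised total. The deposited values are whole numbers that were scaled per library and rounded, not reads. Deposited totals were 25218442 to 51679463 units per library, at least 41102369 in WT control and Poly(I:C) libraries and at most 26688278 in the others. A gene is said to rise or fall where limma gave a Benjamini-Hochberg adjusted p under 0.05 over all tested genes, and log2 differences are of log2(CPM + 0.1), a scale that makes changes of low genes look smaller. Nothing in the labels says that libraries of a group came from separate animals or cultures. Each p-value rests on how far the 2 libraries within groups lay apart. For each gene limma pools that spread over all 5 groups and draws it toward that of other genes. It is therefore not the spread of the compared groups alone, and it may be technical. Tlr4 RNA was present in all libraries, at 30.8 to 69.1 CPM. Its means were 64.6 ± 6.35 CPM (SD, n = 2) in WT untreated and 44.7 ± 0.389 CPM in KO untreated cells. They were 35.6 ± 4.69 CPM in WT control, 32.7 ± 2.71 CPM in KO control and 55.6 ± 11.0 CPM in KO Poly(I:C) cells. Which part of the transcript gave these reads cannot be seen in the table, so WT and KO are labels here, and each direction between them rests on those labels.

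The summed level of 8 macrophage markers, among them Adgre1, Csf1r and Lyz2, was 23500 to 27700 CPM in every library. Most of it was Lyz2 (means of 15100 to 18600 CPM), so the sum says little of the other markers. Fcgr1 had means of 227 and 1040 CPM and Cd14 of 163 and 1050 CPM in WT untreated and WT control. Of the 8 markers 4 rose and 1 fell in WT control, and 4 rose and 1 fell with Poly(I:C) over KO control. Their part in the results was not tested. Several markers that define other cells were at 0 in all libraries: Cd3e, Cd3g, Cd8a and Cd8b1 of T cells, Ncr1, Gzma, Eomes and Klre1 of natural killer cells, Cpa3, Mcpt4, Tpsb2 and Fcer1a of mast cells, and Cd209a of dendritic cells. Others of these lists were low but present: group means were at most 1.12 CPM for Cd4, 1.27 CPM for Lck and 1.23 CPM for Cd5 of T cells, and Klrb1c of natural killer cells reached 0.198 CPM. Kit of mast cells had means of 0.115 CPM in WT untreated, 0.77 CPM in WT control and 1.05 CPM in KO Poly(I:C) cells. Lck, like Kit, was highest in KO Poly(I:C) cells, and the part of either in the results below was not tested. The sum of 9 dendritic cell markers was 0.627 to 0.883 CPM in the untreated and KO control libraries and 2.78 to 3.52 CPM in the libraries of WT control and KO Poly(I:C) cells. Most of this difference was in Ccr7, with means of 0.0487 CPM in WT untreated and 1.63 CPM in WT control, and Dpp4, with 0.147 CPM in KO untreated and 1.1 CPM in KO Poly(I:C) cells; Flt3 had means of 0.0157 and 0.183 CPM in WT untreated and WT control cells. This sum moved with the gene levels below and its part in them was not tested. The sum of 10 neutrophil markers was 135 to 226 CPM in the untreated and KO control libraries and 251 to 301 CPM in the libraries of WT control and KO Poly(I:C) cells. Most of it was Mmp8 (means of 124 to 194 CPM), while S100a8 had means of 7.6 and 44.3 CPM and S100a9 of 11.6 and 37.5 CPM in WT untreated and WT control. Of 9 tested neutrophil markers 5 rose in WT control and 7 with Poly(I:C) over KO control, and their part in the results was not tested. The sum of 5 B cell markers, nearly all of it Cd79b, was 37.0 to 53.0 and 7.53 to 11.4 CPM in the same order. In bulk RNA, fewer cells that express a gene and less RNA per cell cannot be told apart.

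When WT cells after control medium were compared with untreated WT cells, 6 of the 8 genes rose, Havcr2 fell and Cd80 did not pass. Of all tested genes 65.8% passed in that comparison, 33.1% up and 32.8% down. KO cells given Poly(I:C) against untreated KO cells had the same 6 genes up and Havcr2 down, where 72.1% of tested genes passed, 34.5% up and 37.6% down. Against KO control cells 7 rose and 1 fell after Poly(I:C), beside 69.4% of all tested genes, 32.5% up and 36.9% down. KO cells after control medium against untreated KO cells had Cd69 and Icosl up and Cd80 down, beside 20.0% of all tested genes, 10.9% up and 9.08% down. Between the labels, 6 genes were lower and Havcr2 was higher in KO than in WT cells after control medium, where 61.1% of tested genes passed, 30.2% lower and 30.9% higher. In untreated cells 0 of the 8 passed limma between the labels, where 0.167% of all tested genes did, 0.0835% in each direction, and 3 had an unadjusted p under 0.05. These comparisons share groups: untreated and control libraries each serve in several of them, so they are not independent of each other.

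Scaling by library totals alone, in place of TMM scaling, lowered most genes in the libraries with the larger deposited totals, which are not a measure of read depth. With it, 17.2% of tested genes rose and 58.4% fell in WT control, 16.8% and 66.1% in KO Poly(I:C) over KO untreated, and 15.8% and 67.4% over KO control, while 58.2% were higher and 15.8% lower in KO than in WT control. Of the 8 genes 6 then rose and 2 fell in WT control, 5 and 2 in KO Poly(I:C) over KO untreated, 5 and 1 over KO control, and 1 and 1 in KO control over KO untreated. Between the labels after control medium 1 was then higher and 4 lower. The directions of Cd86, Cd83, Cd274, Pdcd1lg2, Cd69 and Havcr2 in WT control over WT untreated and in KO Poly(I:C) over both KO groups were the same under each of the 3 other scalings, and those of Cd80 and Icosl that were not are given beside their values.

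**Figure D1:**
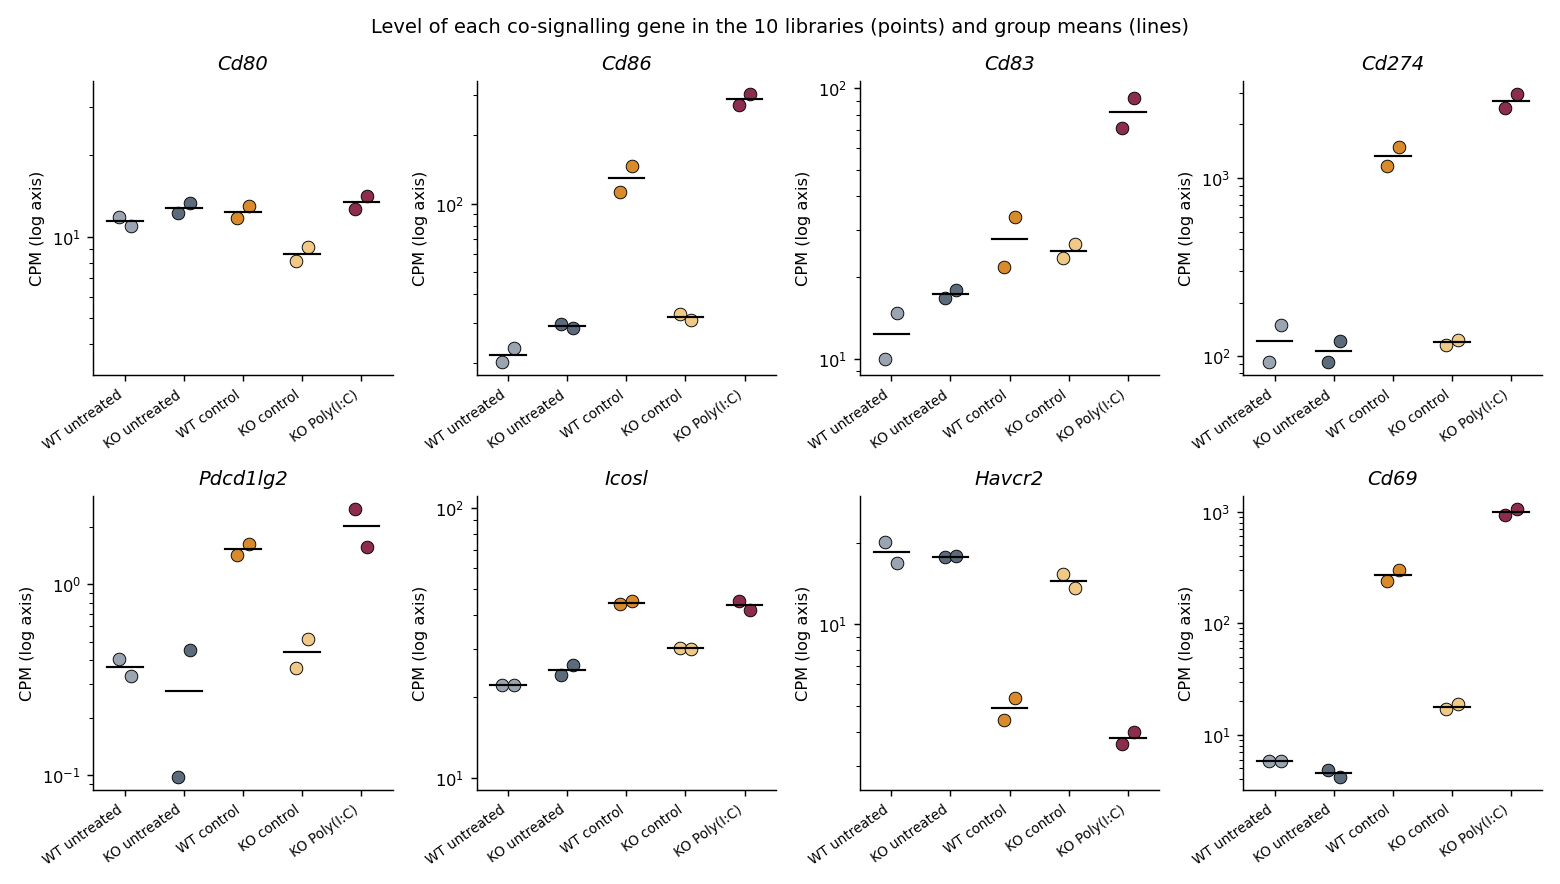
Level of each gene in CPM (log axis, a separate scale per panel) in the 10 libraries, which are the points, with the mean of each pair as a line. Cd86, Cd274 and Cd69 are high in the libraries of WT control and KO Poly(I:C) cells, Havcr2 is low in these same 4 libraries, and Cd80 spans only 8.16 to 14.1 CPM over all 10.

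Cd86 (ENSMUSG00000022901, chromosome 16, 36603869 to 36666081, minus strand, GRCm38) was at 20.2 and 23.2 CPM in the WT untreated libraries and at 29.5 and 28.5 CPM in KO untreated. After control medium it stood at 112 and 146 CPM in WT but at 32.9 and 31.0 CPM in KO cells, and after Poly(I:C) at 271 and 301 CPM. The libraries of WT control and KO Poly(I:C) cells were above all others and did not overlap each other. Such separation, here and for the genes below, was common among all tested genes. Libraries did not overlap for 82.1% of them in WT control against WT untreated and 85.0% in KO Poly(I:C) against KO control. The share was 82.1% in KO against WT control, 63.2% in KO control against KO untreated and 62.4% in KO Poly(I:C) against WT control. The rise in WT control was 2.56 log2 (SE 0.12, limma adjusted p = 6.81e-08) and the rise with Poly(I:C) over KO control 3.16 log2 (SE 0.12, limma adjusted p = 1.19e-08). In KO cells the control medium difference was 0.14 log2 with a 95% interval of −0.14 to 0.41 (limma adjusted p = 0.488).

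Cd80 (ENSMUSG00000075122, chromosome 16, 38455561 to 38496335, plus strand), the other ligand of CD28 and CTLA-4, stayed in a narrow band. It was at 11.8 and 11.0 CPM in WT untreated, 12.2 and 13.3 CPM in KO untreated, 11.7 and 13.0 CPM in WT control, and 12.6 and 14.1 CPM in KO Poly(I:C) libraries. The KO control libraries, at 8.16 and 9.12 CPM, were below all others. Against untreated KO cells Cd80 fell by 0.56 log2 in control medium (SE 0.12, limma adjusted p = 0.00967), a call that was lost without KO control 1 or without KO untreated 2 (limma adjusted p = 0.0784 and 0.0756). Poly(I:C) cells were 0.62 log2 above KO control cells (SE 0.12, limma adjusted p = 0.000903). With scaling by library totals alone, which moves the median of all genes to −0.76 in that comparison, this difference was −0.085, which is 0.67 above that median. In WT cells the difference after control medium was 0.12 log2 (95% interval −0.15 to 0.38, limma adjusted p = 0.411), and against untreated KO cells the Poly(I:C) difference was 0.07. With totals alone these turned to −0.41 and −0.68, which are 0.11 and 0.09 above the medians of all genes there.

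The balance of the 2 CD28 ligands differed between groups. Per kilobase of exon the ratio of Cd86 to Cd80 was 1.73 and 2.14 in WT untreated libraries and 2.46 and 2.17 in KO untreated. It was 9.67 and 11.3 in WT control, 4.08 and 3.44 in KO control, and 21.8 and 21.6 in KO Poly(I:C) libraries. The ratio within a library does not depend on how libraries are scaled, and the 3 treated groups overlapped neither each other nor the untreated groups.

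Cd83 (ENSMUSG00000015396, chromosome 13, 43784775 to 43803132, plus strand) was at 10.02 and 14.8 CPM in WT untreated and 16.7 and 18.0 CPM in KO untreated libraries. After control medium it was at 21.9 and 33.5 CPM in WT and at 23.5 and 26.6 CPM in KO cells, so these groups overlapped. The KO Poly(I:C) libraries, at 71.2 and 92.2 CPM, were above all others. Cd83 rose in WT control by 1.15 log2 (SE 0.22, limma adjusted p = 0.00117) and with Poly(I:C) over KO control by 1.69 log2 (SE 0.22, limma adjusted p = 7.28e-05). In KO cells the control medium difference of 0.52 log2 did not pass (SE 0.22, limma adjusted p = 0.132), except with only those groups in the fit (0.0312) or with the replicate block (0.0132). Between labels in control medium it was −0.11 log2 (95% interval −0.61 to 0.38, limma adjusted p = 0.678), a difference that was not called here, unlike the other 7 genes.

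Of the PD-1 ligands, Cd274 (PD-L1; ENSMUSG00000016496, chromosome 19, 29367455 to 29388095, plus strand) and Pdcd1lg2 (PD-L2; ENSMUSG00000016498, chromosome 19, 29410919 to 29471161, plus strand) lie 22.8 kb apart on the same strand. RefSeq windows upstream of the RefSeq gene start were found for 5 of the 8 genes: Cd80, Cd274, Pdcd1lg2, Icosl and Havcr2 (GRCm38.p6). The 250 bases upstream of both PD-1 ligand genes and of Havcr2, the gene that fell, are shown because Cd274 and Pdcd1lg2 are neighbours at opposite ends of the range of levels and Havcr2 ran against the others. Capitals mark a match to any of 4 motifs on either strand: GAS (TTCNNNGAA), the interferon-stimulated response element (ISRE), AP-1 (TGANTCA) and the kappa B site. They are at chr19:29367188-29367437, chr19:29410669-29410918 and chr11:46454681-46454930, all on the plus strand.
Cd274: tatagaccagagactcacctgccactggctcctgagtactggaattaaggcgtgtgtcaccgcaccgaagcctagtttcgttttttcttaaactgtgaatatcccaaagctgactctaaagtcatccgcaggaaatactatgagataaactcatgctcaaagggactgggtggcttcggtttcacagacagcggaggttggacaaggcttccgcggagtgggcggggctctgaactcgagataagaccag
Pdcd1lg2: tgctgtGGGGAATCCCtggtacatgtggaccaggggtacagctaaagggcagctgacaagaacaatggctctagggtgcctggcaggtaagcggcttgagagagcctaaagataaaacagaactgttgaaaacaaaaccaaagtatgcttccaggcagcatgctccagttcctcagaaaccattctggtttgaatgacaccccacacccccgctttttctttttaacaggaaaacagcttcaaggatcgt
Havcr2: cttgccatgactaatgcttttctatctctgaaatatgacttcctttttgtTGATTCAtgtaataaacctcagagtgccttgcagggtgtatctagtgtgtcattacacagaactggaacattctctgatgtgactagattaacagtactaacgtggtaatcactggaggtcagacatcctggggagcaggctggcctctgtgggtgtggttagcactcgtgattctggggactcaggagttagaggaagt

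The Pdcd1lg2 window holds 1 kappa B match, which begins 244 bases upstream of the start, and the Icosl window holds 1 that begins 111 bases upstream. The Havcr2 and Cd80 windows each hold 1 AP-1 match, 200 and 42 bases upstream. These distances are from the RefSeq start, which can differ from the gene spans printed here. The Cd80 window, chr16:38458683-38458932, lies inside the span printed for Cd80. The Icosl window, chr10:78069118-78069367, runs past the start of the span printed for Icosl. The Cd274 window holds these letters for 0 of the 4 motifs, and none of the 5 windows holds a GAS or ISRE match. Over all 32851 RefSeq windows of this length, 7.25% hold the kappa B motif, 6.75% AP-1, 7.02% GAS and 2.98% ISRE. A match is a description of letters, and a window without one says nothing of a factor.

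Cd274 was the most abundant of the 8 genes per kilobase in every group. It was at 93.3 and 149 CPM in WT untreated and at 92.7 and 122 CPM in KO untreated libraries. After control medium it reached 1171 and 1490.0 CPM in WT cells, but 115 and 124 CPM in KO cells, and after Poly(I:C) 2460.1 and 2937 CPM in KO cells. The KO control libraries lay within the range of the untreated libraries, and the libraries of WT control and KO Poly(I:C) cells did not overlap each other or any other group. The rise in WT control was 3.48 log2 (SE 0.21, limma adjusted p = 3.26e-07), and that with Poly(I:C) over KO control was 4.49 log2 (SE 0.21, limma adjusted p = 3.96e-08). In KO cells the control medium difference was 0.17 log2 (95% interval −0.31 to 0.64, limma adjusted p = 0.638). By level per kilobase, averaged over the group, Cd274 ranked 1103 of 13107 tested genes in WT untreated, 181 in WT control and 90 in KO Poly(I:C) cells. The annotation places an antisense gene, AC119228.1, over 511 of the 3622 exon bases of Cd274; it was not analysed here.

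Pdcd1lg2 was the least abundant of the 8 genes per kilobase in all 5 groups. Its deposited values were 13 and 10 units in WT untreated, 3 and 14 in KO untreated, 51 and 54 in WT control, 11 and 16 in KO control, and 84 and 57 in KO Poly(I:C) libraries. In CPM these are 0.407 and 0.331, 0.0981 and 0.454, 1.43 and 1.61, 0.363 and 0.519, and 2.47 and 1.57. The libraries of WT control and KO Poly(I:C) cells overlapped each other and were above all others, and the other 3 groups overlapped. The rise in WT control was 1.79 log2 (SE 0.44, limma adjusted p = 0.00464) and that with Poly(I:C) over KO control was 1.95 log2 (SE 0.44, limma adjusted p = 0.0026). The KO to WT difference in control medium, −1.59 log2 (SE 0.44, limma adjusted p = 0.00971), was not called without KO control 1 or without WT control 2 (limma adjusted p = 0.0609 and 0.0508). An antisense gene inside its span, A930007I19Rik, which shares 0 exon bases with it, ranged from 0.746 to 7.81 CPM and was also highest in KO Poly(I:C) libraries (7.44 ± 0.53 CPM, SD, n = 2). Whether the authors counted by strand was not given in the labels used here, which bears on reads outside the exons of Pdcd1lg2 and, for Cd274, on the shared exon bases above.

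Icosl (ENSMUSG00000000732, chromosome 10, 78069302 to 78083913, plus strand) changed within a small range. It was at 22.1 and 22.2 CPM in WT untreated and 24.1 and 26.2 CPM in KO untreated libraries. After control medium it was at 44.0 and 45.2 CPM in WT and 30.4 and 30.2 CPM in KO cells, and after Poly(I:C) at 45.3 and 41.9 CPM. The libraries of WT control and KO Poly(I:C) cells overlapped, and every other neighbouring pair of groups was separate. Icosl rose by 1.00 log2 in WT control (SE 0.08, limma adjusted p = 2.32e-06) and by 0.52 log2 with Poly(I:C) over KO control (SE 0.08, limma adjusted p = 0.000215). With scaling by library totals alone the latter turned to −0.19, which is 0.57 above the median of all genes there. Over untreated KO cells the Poly(I:C) rise was 0.79 log2 (SE 0.08, limma adjusted p = 9.25e-06). That call was lost with totals alone, at 0.038 (limma adjusted p = 0.683), which is 0.81 above the median of all genes there. The rise of 0.27 log2 in KO control over KO untreated cells (SE 0.08, limma adjusted p = 0.0424) was lost in 9 of 13 other settings. Over all 13 the difference was 0.21 to 0.33 log2. Among the lost calls, limma adjusted p was 0.052 with rlog values and 0.0866 with scaling by library totals alone.

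Havcr2 (TIM-3; ENSMUSG00000020399, chromosome 11, 46454935 to 46481255, plus strand) ran against the others. It was at 20.1 and 16.8 CPM in WT untreated and 17.7 and 17.9 CPM in KO untreated libraries. After control medium it was at 4.45 and 5.35 CPM in WT and 15.4 and 13.6 CPM in KO cells, and after Poly(I:C) at 3.61 and 4.01 CPM. The libraries of WT control and KO Poly(I:C) cells were below all others, with the latter lowest. Havcr2 fell by 1.89 log2 in WT control (SE 0.14, limma adjusted p = 1.27e-06) and by 1.90 log2 with Poly(I:C) against KO control (SE 0.14, limma adjusted p = 1e-06). In KO cells the control medium difference was −0.30 log2 (95% interval −0.61 to 0.01, limma adjusted p = 0.166). Lgals9, which encodes galectin-9, a described ligand of TIM-3, had the opposite direction: it rose from 229.8 ± 11.7 to 893 ± 74.7 CPM (SD, n = 2) in WT control cells (log2 1.96).

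Cd69 (ENSMUSG00000030156, chromosome 6, 129267325 to 129275436, minus strand) had the widest range of the 8 genes. It was at 5.86 and 5.79 CPM in WT untreated and 4.84 and 4.22 CPM in KO untreated libraries. After control medium it was at 239 and 302 CPM in WT and at 17.0 and 18.9 CPM in KO cells, and after Poly(I:C) at 933 and 1055 CPM. All 5 groups were separate, where 35.9% to 85.6% of all tested genes were separate in the single comparisons of 2 groups. The rise in WT control was 5.50 log2 (SE 0.12, limma adjusted p = 6.45e-10), the 50th largest absolute difference among the 13171 tested genes. Cd69 also rose in KO control over KO untreated cells, by 1.97 log2 (SE 0.12, limma adjusted p = 2.09e-05), where it ranked 59th. With Poly(I:C) it was 5.78 log2 above KO control (SE 0.12, limma adjusted p = 3.85e-10) and 7.75 log2 above untreated KO cells, the 28th largest. S1pr1, whose product CD69 binds, fell from 23.9 ± 0.653 to 2.67 ± 0.692 CPM (SD, n = 2) in WT control cells (log2 −3.14) and was at 1.11 ± 0.329 CPM in KO Poly(I:C) cells.

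**Figure D2:**
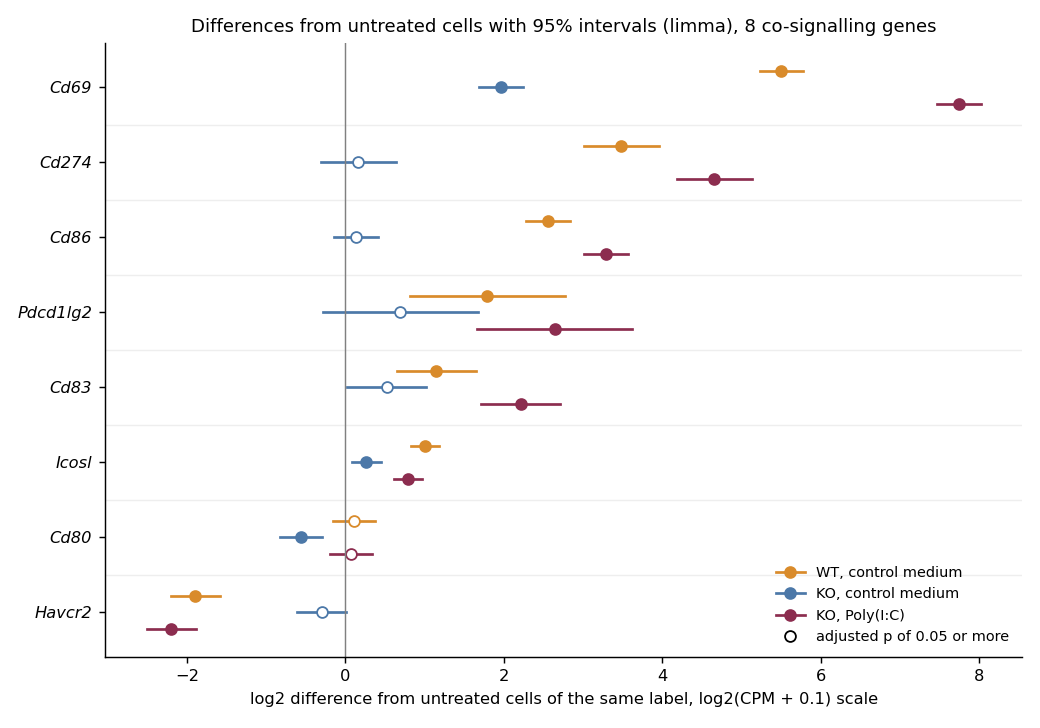
Log2 difference of each gene from untreated cells of the same label, with 95% intervals from limma, for WT control, KO control and KO Poly(I:C) cells; open points did not pass. Cd69 (5.50, 1.97 and 7.75) leads, Cd274 and Cd86 have KO control intervals that include 0, and Havcr2 lies on the negative side.

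The response to control medium was compared directly between the labels with the interaction of label and medium, for which 45.7% of tested genes passed, 23.7% with a lower response in KO cells and 22.0% with a higher one (12.9% and 49.5% with scaling by library totals alone). For 5 of the 8 genes the KO response was lower: Cd69 by 3.54 log2 (SE 0.17, limma adjusted p = 4.76e-07), Cd274 by 3.32 (SE 0.30, limma adjusted p = 1.54e-05), Cd86 by 2.42 (SE 0.17, limma adjusted p = 3.64e-06), Icosl by 0.74 and Cd80 by 0.67. For Havcr2 the term was 1.59 log2 (SE 0.20, limma adjusted p = 0.000125), a weaker fall in KO cells. Cd83 (−0.62, SE 0.32, limma adjusted p = 0.135) and Pdcd1lg2 (−1.10, SE 0.62, limma adjusted p = 0.176) did not pass. Their 95% intervals, −1.33 to 0.08 and −2.48 to 0.28, include 0 and reach well below it. Their calls came and went with single settings: Cd83 passed in 4 of 17 and Pdcd1lg2 in 2 of 17. After control medium the levels themselves were lower in KO than in WT cells by 3.90 log2 for Cd69, 3.47 for Cd274, 2.00 for Cd86, 1.59 for Pdcd1lg2, 0.56 for Icosl and 0.51 for Cd80. Havcr2 was 1.55 log2 higher in KO cells. With scaling by library totals alone Cd80 and Icosl were at −0.03 and −0.07 and did not pass, against a median of all genes of 0.50, and their interaction terms of −0.18 and −0.24 did not pass either.

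In untreated cells the largest differences between the labels were for Cd83 (0.51 log2 higher in KO, SE 0.22, limma adjusted p = 0.561), Pdcd1lg2 (−0.50, SE 0.44, limma adjusted p = 0.77), Cd86 (0.42, SE 0.12, limma adjusted p = 0.361) and Cd69 (−0.36, SE 0.12, limma adjusted p = 0.46). The libraries of the labels did not overlap for 5 of the 8 genes, as for 35.9% of all tested genes. The Cd274 difference was −0.15 log2 with a 95% interval of −0.62 to 0.32.

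The KO Poly(I:C) and WT control groups differ in both label and treatment and are set side by side because most of the 8 genes were farthest from untreated cells in them. Of the 8, Cd69, Cd83, Cd86 and Cd274 were higher in KO Poly(I:C), and 0 were lower, where 23.7% of tested genes passed, 11.9% in each direction. With scaling by library totals alone 4 were higher and 2 lower (Havcr2 at −0.57 and Icosl at −0.26), beside 5.8% and 32.2% of tested genes. Cd69 was higher by 1.88 log2 (SE 0.12, limma adjusted p = 4.51e-05), Cd83 by 1.58 (SE 0.22, limma adjusted p = 0.00142) and Cd86 by 1.16 (SE 0.12, limma adjusted p = 0.000398). Cd274 was higher by 1.03 (SE 0.21, limma adjusted p = 0.00767), which did not pass without KO Poly(I:C) 2 or without WT control 1 (limma adjusted p = 0.0665 and 0.0715). The differences for Cd80 (0.11, 95% interval −0.15 to 0.38, and −0.12 with totals alone), Icosl (−0.03, −0.21 to 0.15, and 0.0085 with median-of-ratios scaling), Pdcd1lg2 (0.36, −0.62 to 1.33) and Havcr2 (−0.35, −0.66 to −0.04) did not pass over all genes.

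Levels of different genes were compared per kilobase of merged exons, which were 1961 bases for Pdcd1lg2 to 6509 for Cd69. In WT untreated cells the order of mean CPM per kb was Cd274 (33.5 ± 10.9, SD, n = 2), Havcr2 (6.78 ± 0.874), Cd86 (5.93 ± 0.584), Cd83 (4.82 ± 1.31), Icosl (4.80 ± 0.0138), Cd80 (3.08 ± 0.157), Cd69 (0.895 ± 0.00727) and Pdcd1lg2 (0.188 ± 0.0275). In KO Poly(I:C) cells it was Cd274 (745 ± 93.1), Cd69 (153 ± 13.2), Cd86 (78.1 ± 5.81), Cd83 (31.8 ± 5.78), Icosl (9.44 ± 0.521), Cd80 (3.61 ± 0.292), Havcr2 (1.4 ± 0.104) and Pdcd1lg2 (1.03 ± 0.325). Between these groups, which differ in both label and treatment, Cd69 went from the 7th to the 2nd place and Havcr2 from the 2nd to the 7th. In the first order Havcr2 and Cd86, Cd86 and Cd83, and Cd83 and Icosl each differed by no more than the larger of their SDs. In KO cells Cd69 was in the 7th place untreated (0.696 ± 0.068 CPM per kb) and in the 6th after control medium (2.76 ± 0.2). Havcr2 was in the 4th place in untreated KO cells (6.54 ± 0.0523) and in the 5th after control medium (5.32 ± 0.458).

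**Figure D3:**
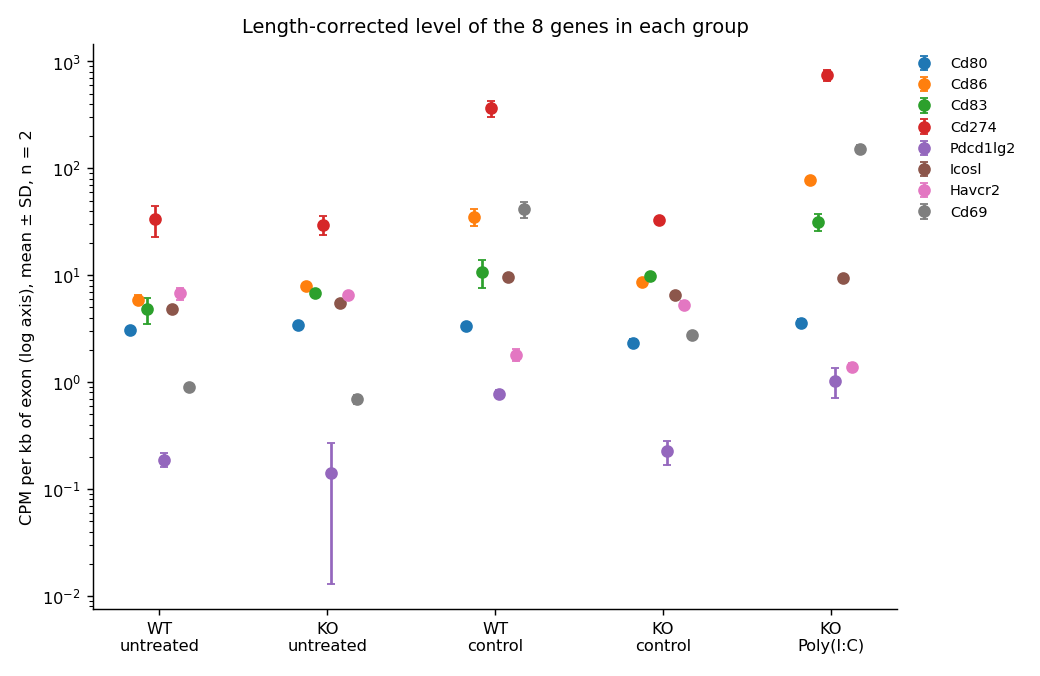
Mean CPM per kb of exon (log axis) with SD over 2 libraries for the 8 genes in each group. Cd274 is highest and Pdcd1lg2 lowest in every group. Cd69 and Havcr2 exchange places between WT untreated and KO Poly(I:C), which differ in label and treatment. In KO untreated cells Havcr2 is in the 4th place.

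Of the receptors that the 8 molecules engage, Cd28, which binds CD80 and CD86, fell from 37.1 ± 3.42 CPM (SD, n = 2) in WT untreated to 6.51 ± 1.31 CPM in WT control cells (log2 −2.50, limma adjusted p = 3.94e-07) and stood at 4.60 ± 0.809 CPM after Poly(I:C). Pdcd1, which encodes PD-1, was listed at 0 in the WT untreated and KO control libraries and reached a mean of 0.249 ± 0.155 CPM in WT control and 0.579 ± 0.154 CPM in KO Poly(I:C) cells, so no fold is given. Ctla4 was listed at 0 in 4 of the 5 groups. Of the 5 tested genes of this list (Cd28, Icos, Pdcd1, Rgmb and S1pr1), 1 rose and 3 fell in WT control cells (median −1.13 log2, against −0.01 over all tested genes), and 1 rose and 3 fell with Poly(I:C) over KO control (median −1.19, against −0.06). Of all tested genes 65.8% passed in the first comparison and 69.4% in the second, shares that also stand beside the counts of the lists below. With scaling by library totals alone 1 rose and 4 fell in each (medians −1.42 and −1.62, against −0.52 and −0.76).

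Other co-signalling ligands moved in both directions. Of 25 tested genes, 17 rose and 6 fell in WT control (median 1.01 log2, against −0.01 over all tested genes), 3 rose and 8 fell in KO control over KO untreated (median −0.08, against 0.00), and 17 rose and 4 fell with Poly(I:C) over KO control (median 1.01, against −0.06). With scaling by library totals alone the last split was 12 and 7. Cd40, a receptor through which T cells activate macrophages, went from 8.25 ± 1.21 to 309 ± 37.2 CPM (SD, n = 2) in WT control (log2 5.21) and stood at 12.4 ± 0.224 CPM in KO control and 634 ± 35.2 CPM in KO Poly(I:C) cells. Tnfsf15, a TNF family ligand of T cells, went from 1.95 ± 0.372 to 29.4 ± 6.58 CPM in WT control (log2 3.84) and was at 121 ± 27.2 CPM after Poly(I:C). Slamf1, a self-binding receptor shared with T cells, was at 0.177 ± 0.0159 and 4.58 ± 2.09 CPM in WT untreated and WT control, and its log2 difference of 4.01 depends on the pseudocount. The TNF family ligands Tnfsf9 (4-1BB ligand) and Tnfsf4 (OX40 ligand) also rose in WT control, by 2.31 and 1.01, and stood higher still in KO Poly(I:C), by 0.82 and 1.37 over WT control.

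Within the B7 family itself the direction was not shared. Vsir, which encodes the inhibitory ligand VISTA, fell from 467 ± 69.7 to 146 ± 10.3 CPM (SD, n = 2) in WT control (log2 −1.67) and from 509.8 ± 0.414 to 293 ± 2.53 CPM in KO control (log2 −0.80), and was at 127 ± 10.3 CPM after Poly(I:C). Cd276 (B7-H3) was low and fell from 4.45 ± 0.487 to 1.27 ± 0.141 CPM in WT control (log2 −1.73). Vtcn1 (B7-H4) was listed at 0 in all libraries. Vsir and Cd276 were thus highest in the untreated groups, where Cd274 and Cd86 were low. In KO control over KO untreated cells the largest changes of the list were in Btla (1.88), which encodes an inhibitory receptor, and Tnfsf14 (−1.51), which encodes the TNF family ligand LIGHT. Lgals9, Tnfsf9, Vsir and Cd276 were named after their values were seen.

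**Figure D4:**
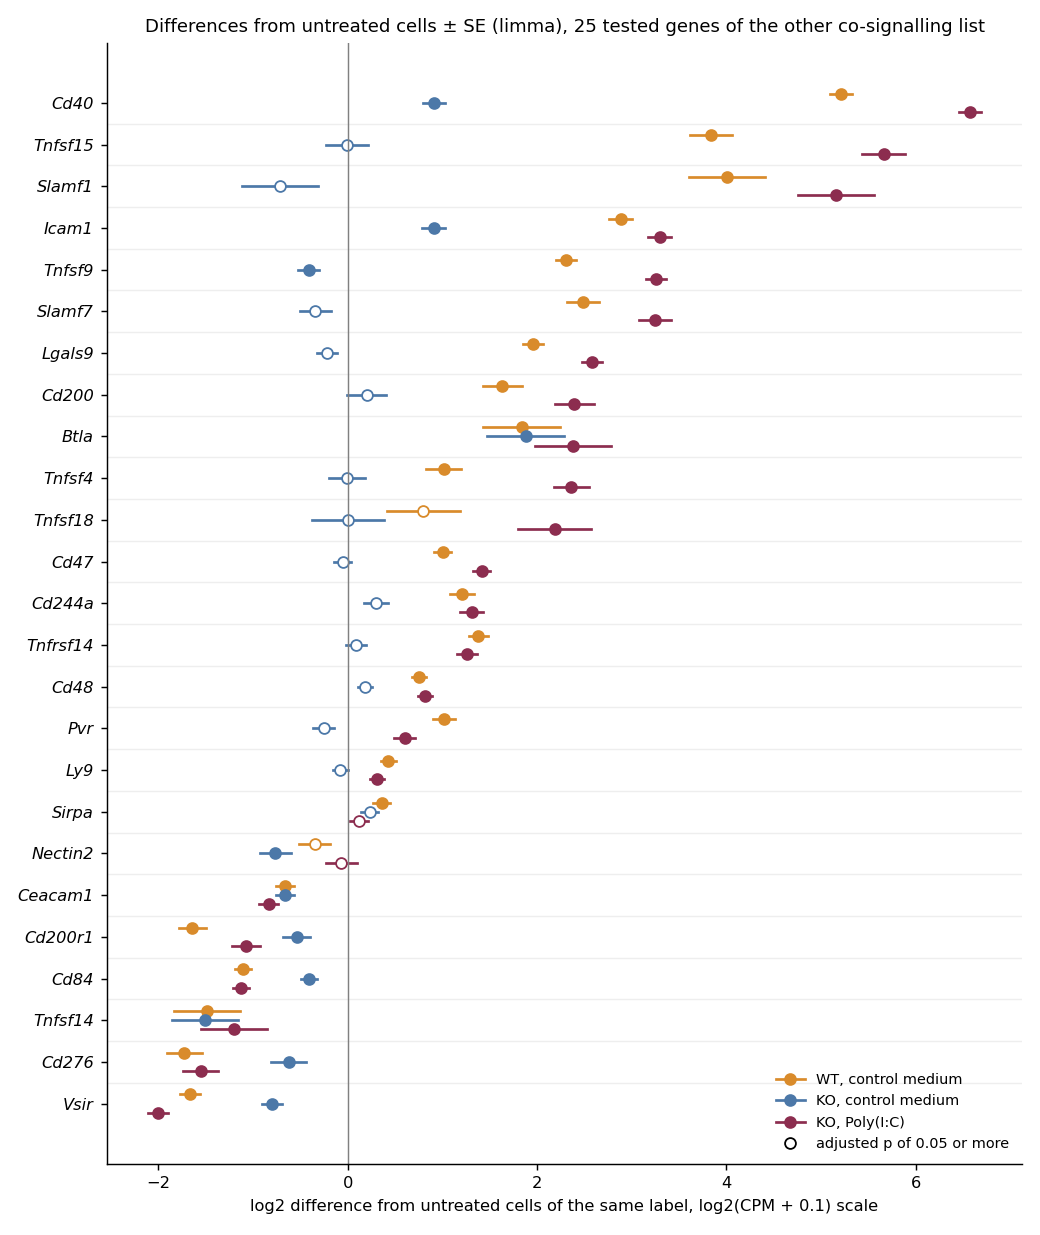
Log2 difference from untreated cells of the same label (points, with SE) for the 25 tested genes of the list of other co-signalling ligands; open points did not pass. Cd40 heads the list at 5.21 in WT control and 6.57 in KO Poly(I:C), most KO control points lie near 0, and Vsir, Cd276, Cd84, Cd200r1, Ceacam1 and Tnfsf14 fell in all 3 groups.

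Genes that act on the B7 proteins after their synthesis were also measured. Marchf1, a ubiquitin ligase that removes CD86 from the surface, rose from 59.6 ± 20.1 to 169 ± 6.60 CPM (SD, n = 2) in WT control (log2 1.55, limma adjusted p = 4.63e-05) and was at 66.4 ± 3.91 CPM in KO control and 233 ± 30.2 CPM in KO Poly(I:C) cells. Cmtm6, a membrane protein that keeps PD-L1 from lysosomal breakdown, rose by 0.91 log2 in WT control, and its relative Cmtm4 fell by 1.23. Of the 7 genes, 4 rose and 2 fell in WT control (median 0.48 log2, against −0.01 over all tested genes, of which 33.1% rose and 32.8% fell). With scaling by library totals alone 2 rose and 3 fell (median −0.05, against −0.52). With Poly(I:C) over KO control 5 rose and 1 fell (median 0.34, against −0.06), which turned to 3 and 4 with that scaling (median −0.38, against −0.76).

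Among 20 factors and receptors known to act upstream of these genes, 17 rose and 2 fell in WT control (median 1.35 log2, against −0.01 over all tested genes), and 17 rose and 2 fell with Poly(I:C) over KO control (median 1.36, against −0.06), or 12 and 2 with scaling by library totals alone (median 0.65, against −0.76). In KO control over KO untreated cells 9 rose and 2 fell (median 0.29, against 0.00), led by the NF-kB subunits Nfkb2 (1.02), Rel (1.01) and Relb (0.72). Also chosen after their values were seen, the interferon pathway genes Irf1 (−0.06, limma adjusted p = 0.792) and Stat2 (0.13) did not pass there, while Jak2 (0.32) rose. In WT control Nfkb2 rose by 2.95, the kinase Jak2 by 2.93 and Irf1 by 2.04. With Poly(I:C) over KO control, Jak2 rose by 3.34, Irf1 by 3.28 and Stat2 by 3.16. Ifngr1, a chain of the interferon gamma receptor, and Batf3, a factor of dendritic cell development, were the 2 that fell in WT control, by 0.89 and 1.41.

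For each of the 8 genes, the 3 other tested genes with the most similar profile over the 10 libraries were taken by Pearson r of log2(CPM + 0.1), as a description: libraries of a group share their treatment, and genes that separate the same groups have high r. For Cd274 these were Gna13, a G protein alpha subunit (r = 0.999), Itpkb and Trim56. For Cd69 they were Mtmr14, Tnfsf10, which encodes the death ligand TRAIL (r = 0.999), and Cd52, and for Cd86 they were Pdcd10 (r = 0.998), Vps54 and Aftph. Those of Icosl included Ifngr2, a chain of the interferon gamma receptor (r = 0.993), beside Tmem185b and Zmynd15. Those of Cd83 were Cyld, a deubiquitinase that restrains NF-kB (r = 0.982), Gm38377 and Stxbp3. Havcr2 was closest to Msh6, a mismatch repair gene (r = 0.997), Ctdspl and E2f2, a cell cycle factor (r = 0.996). Cd80 was closest to Scarb2 and Ctsl, which encode a lysosomal membrane protein and cathepsin L (r = 0.932 and 0.93), and Arrdc4. Pdcd1lg2 was closest to Tcp10b (r = 0.98), Fcf1 and 9930022D16Rik.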

How the data were processed

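Stranded mRNA libraries (TruSeq kit, per the labels' protocols) of 10 samples were compared. RSEM 1.2.12, STAR 2.4.0d, DESeq2 and Trim Galore 0.2.8 appear in the submitters' processing notes without roles, and no genome build was given in the sources used here. One table deposited by the authors holds whole numbers, treated here as a signal: low whole numbers are skipped or doubled, and the 75th percentile over all rows is 25 in every library, so they are not raw reads and no counting interval is given. The authors also deposited rlog values on a log2 scale, used as an alternative. Of 45318 identifiers 44585 matched a GENCODE M21 symbol. Values were divided by library total times a trimmed mean of M values (TMM) factor (30% and 5% trimmed) to give CPM. The 13171 genes that reached a deposited value of 10 in 2 or more libraries were tested with limma 3.58.1 with a trend (R 4.3.3) on log2(CPM + 0.1), 1 coefficient for each of 5 groups, in 8 comparisons including the interaction. The procedure was tested on simulated data. The 8 genes, lists and motifs were chosen with earlier results of these data known. From each list the 3 called genes of largest change were to be named; 1 of them is not reported here. Replicate numbers come from the titles; the labels do not say that they pair samples. Alternatives were 3 other scalings, 2 other pseudocounts, no filter, rlog values, only the groups compared, a replicate block and leaving out each library.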

Additional observations from a re-analysis of the deposited data

Results flagged for a closer look

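For 6 of the 8 genes the response to control medium differed between cells labelled KO and WT by the test of the difference itself (the interaction in limma, adjusted over all genes). The term, KO response minus WT response in log2, was −3.54 for Cd69 (SE 0.17), −3.32 for Cd274 (SE 0.30), −2.42 for Cd86 (SE 0.17), −0.74 for Icosl (SE 0.11) and −0.67 for Cd80 (SE 0.17). For Havcr2, which fell in WT control cells, it was 1.59 (SE 0.20). Of all tested genes 45.7% passed this test, so a different response was common in these libraries. The Cd80 term combines a response of 0.12 in WT cells, which did not pass, with one of −0.56 in KO cells. Groups of 2 libraries are too small for a single library to be tested as standing apart.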

How the results depend on the processing

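Of 864 values of single genes under other settings, 816 kept their direction and their side of the threshold, 20 lost a call, 11 gained one and 17 changed sign. In 4 of these the value passed the threshold on one side, all with scaling by library totals alone, which moved the median of all tested genes to −0.52 in WT control over WT untreated, −0.77 in KO Poly(I:C) over KO untreated and −0.76 in KO Poly(I:C) over KO control: Cd80 at −0.41, −0.68 and −0.085 in these comparisons, and Icosl at −0.19 in the last. The other 13 passed on neither side. With totals alone these were Cd83 at 0.37 in KO over WT control and Cd80 at −0.12 in KO Poly(I:C) over WT control. Icosl in that last comparison was at 0.0085 with median-of-ratios scaling, 0.013 with rlog values and −0.0895 to 0.023 when a library was left out, the highest without KO Poly(I:C) 2. Left-out libraries gave the rest. Between untreated labels the range was −0.48 to 0.19 for Cd274 (above 0 without KO untreated 1 or WT untreated 2), −1.24 to 0.25 for Pdcd1lg2 (highest without KO untreated 1) and −0.18 to 0.085 for Havcr2 (highest without WT untreated 1). In KO control over KO untreated it was −0.034 to 0.37 for Cd274 and −0.049 to 1.43 for Pdcd1lg2, both lowest without KO untreated 1. Cd83 ranged from −0.42 to 0.19 in KO over WT control (highest without WT control 2), and Cd80 from −0.015 to 0.15 in KO Poly(I:C) over KO untreated (lowest without KO Poly(I:C) 2). The number of the 8 genes called in KO control over KO untreated was 3, and 1 to 2 when a library was left out, with the lowest value without KO control 1. Among all genes tested, the number called between untreated labels was 22, from 2 with only those groups in the fit to 99 with the replicate block, and 69 without WT untreated 2. In KO control over KO untreated it was 2632, and 1037 to 1584 when a library was left out. In KO Poly(I:C) against WT control it was 3128, 5001 with scaling by totals and 1241 to 2452 when a library was left out. With the replicate block 4 of the 8 genes were called in KO control over KO untreated and 7 in the interaction, Cd83 being the addition in both (limma adjusted p = 0.0132 and 0.0147). It changed no other call among the 8. Deviations of same-numbered libraries correlated at 0.171 to 0.315 between groups of the same label and at 0.013 to 0.111 between labels. The labels state no pairing and a group has only 2 libraries, so the unpaired fit was kept and a pairing within each label was not settled. A lone library left in a group was assumed to vary like the others. The low deposited values of Pdcd1lg2 limit its precision.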
